A study of Mus musculus with 2 samples.

Results

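The genes described here carry the insulin signal from the cell surface to the FoxO transcription factors, and they were taken as a set of 9: Insr, Irs1, Irs2, Grb10, Pik3r1, Akt2, Trib1, Foxo1 and Foxo3. They were chosen by name, as every probe outside the controls whose RefSeq transcript belongs to one of these genes, which gave 16 of the 39402 probes on the array and 9 of the 20652 genes matched to a probe. The samples were liver RNA of fasting and of feeding male mice, each group a pool of 3 mice on 1 Agilent array, labelled with Cy3. The labels give no strain, genotype or age; the methods of the study name, for its mice in general, C57BL/6J males or transgenic mice on that background, aged about 8 to 12 weeks, with chow. The fasting group went without food overnight, for 16 h by one label and for 14 to 16 h by another. The feeding group is described in one place as fed ad libitum and in another as given food after the fast, and neither the length of feeding nor the time of day is given. With 1 array per group there was no replicate and no test, and the difference between mice is not known.

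Insulin binds its receptor, a tyrosine kinase, which phosphorylates the docking proteins IRS1 and IRS2. These recruit the lipid kinase PI3K, and the lipid it makes activates AKT2, the main AKT form of insulin action in liver. AKT phosphorylates FOXO1 and FOXO3 and keeps them out of the nucleus, so that in the fasted liver, when insulin is low, FoxO factors are nuclear and drive genes of glucose production, as well as genes of the insulin pathway itself such as Insr and Irs2.

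Pik3r1, which encodes the regulatory subunit p85α of PI3K, was 2.80-fold higher upon feeding. Foxo1 was 2.18-fold lower and Irs2 2.11-fold lower, while Insr was 1.55-fold lower. Irs1, Akt2 and Trib1 differed by 1.23-fold or less on their brightest probes under quantile normalization. Foxo3 was dim and its difference lay within the spread of replicate spots, and Grb10 could not be read above background. Values below are quantile normalized signals, an intensity with no absolute unit, and differences are log2 of feeding minus fasting. The only error that can be given is the SD of a difference between single spots, from the 100 probes of nearest signal among 399 probes spotted 10 times, and it covers the measurement on the array alone.

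**Figure D1:**
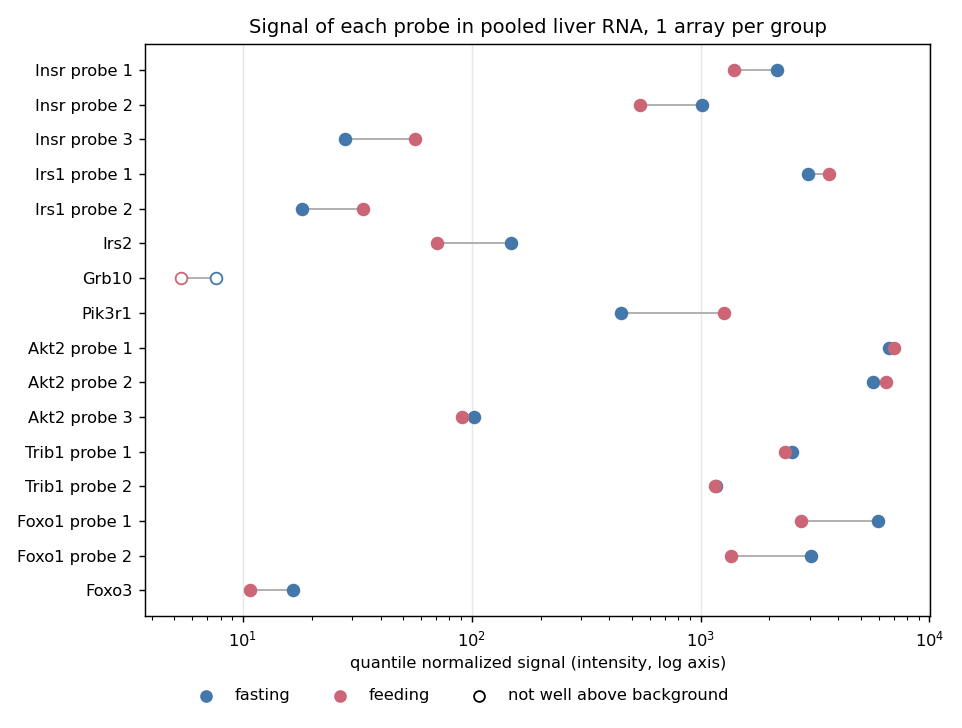
Quantile normalized signal (log axis) of each of the 16 probes on the fasting array (blue) and the feeding array (red), joined by a line; open circles are not well above background. Both Foxo1 probes and the Irs2 probe lie lower upon feeding, and the Pik3r1 probe goes from 451 to 1261.

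Insr encodes the insulin receptor and had 3 probes, all for the transcript NM_010568. The brightest probe read 2159 in fasting and 1397 upon feeding, a difference of -0.63 (SD of spots 0.10). The next read 1011 and 545, a difference of -0.89 (SD 0.10). The dimmest probe went the other way, from 28.1 to 56.5, a difference of 1.01 with an SD of 0.40, which shrank to 0.23 under another background correction (normexp). The bright probes were thus lower upon feeding, by several times the spread of spots, whereas the mean over all 3 probes was only -0.17.

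The docking proteins of the receptor differed from each other. Irs2 had 1 probe (NM_001081212), with a signal of 149 in fasting and 70.5 upon feeding, a difference of -1.08 (SD 0.18). This call rests on the background correction: under normexp the difference was -0.42, in the same direction but under 2-fold. The spot's raw median signal was 168 in fasting and 86 upon feeding, over a local background of 24 and 20. Irs1 (NM_010570) read 2955 in fasting and 3649 upon feeding on its brighter probe, a difference of 0.30 (SD 0.10). Its dimmer probe read 18.1 and 33.6, a difference of 0.89 (SD 0.51). Irs1 was therefore slightly higher upon feeding on both probes, the opposite side of 0 from Irs2.

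The promoters of these docking genes are shown because an element of this kind in the Irs2 promoter has been studied as a place where insulin and fasting act on the gene. The bases come from RefSeq's GRCm38.p6 promoter table, which holds a promoter for 7 of the 9 genes (12 start sites in all) and none for Insr and Trib1, and only the 250 bases before each start were searched, on both strands. Capitals mark the E-box CACGTG, the site of bHLH factors such as TFE3 and USF, and the insulin response sequence TGTTTTG, to which forkhead factors bind. The Irs1 stretch is chr1:82291515-82291574, the Irs2 stretch chr8:11008934-11008993 and the stretch of the paralog Irs4 chrX:141725332-141725391, all on the minus strand and printed 5′ to 3′. They begin 135, 64 and 174 bases before the start.
Irs1: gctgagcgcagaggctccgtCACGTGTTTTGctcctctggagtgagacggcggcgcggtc
Irs2: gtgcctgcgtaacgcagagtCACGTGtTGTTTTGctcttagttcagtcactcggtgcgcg
Irs4: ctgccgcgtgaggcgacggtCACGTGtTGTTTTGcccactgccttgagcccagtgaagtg

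In Irs2 and Irs4 the E-box and the insulin response sequence are separated by a single base, and in Irs1 they overlap by the bases TG. An E-box was found in 6.02% of the 32851 promoter windows of the table and the insulin response sequence in 5.56%. Both within 10 bases of each other (first base to first base, a distance set after these windows had been read) occurred in 7 windows, 3 of them those of Irs1, Irs2 and Irs4. The window of the remaining paralog, Irs3, held no such pair. Of the 3 genes with these shared letters, Irs2 was lower upon feeding and Irs1 slightly higher. Irs4, at signals of 56.3 and 49.0, differed by -0.20 (SD 0.32), within the spread of spots. Whether the pair has a part in these differences was not tested. Irs3, without the pair, was higher upon feeding by 1.20, at dim log2 signals of 5.79 and 6.98, and is named after its value was seen. Neither an SD of spots nor a value under normexp is given for Irs3, so the size of its difference is uncertain. The E-box, the insulin response sequence and the cAMP response element were likewise chosen after values and sequences were seen. The FoxO consensus TGTTTAC, present in 3.17% of all windows, and the cAMP response element TGACGTCA, in 1.55%, were not found in any of the 12 windows. A match is no proof of binding, and no match speaks only of these letters in these windows.

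Grb10 encodes an adaptor that binds the activated receptor and dampens its signal. Its 1 probe (NM_010345) had signals of 7.67 in fasting and 5.37 upon feeding, on neither array well above background, so no fold is given. The related adaptor Grb14, which is prominent in liver, read 7534 in fasting and 6543 upon feeding, a difference of -0.20 (SD 0.09) that was -0.004 with each array scaled by its median.

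Pik3r1 showed the largest difference of the set. Its probe (NM_001077495, a transcript of the long form p85α) read 451 in fasting and 1261 upon feeding, a difference of 1.48 (SD 0.10), which ranked 191 among the increases of 16346 genes. It was at least 2-fold higher under all 4 other settings that could be applied, from 1.34 with the normexp correction to 1.61 with scaling by the median. A single probe was matched, so the short forms p55α and p50α could not be read separately.

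Akt2 (NM_001110208), the kinase that phosphorylates FoxO factors, differed little. Its brightest probe read 6640 in fasting and 7026 upon feeding, a difference of 0.08 (SD 0.09). The second read 5686 and 6487, a difference of 0.19 (SD 0.09), and the dimmest 103 and 90.7, a difference of -0.18 (SD 0.19). The probes lay on either side of 0, none further from it than 0.39 under any of the scalings. Akt1, the paralog, read 5368 and 6769, a difference of 0.33 (SD 0.09).

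Trib1 encodes a pseudokinase that brings C/EBPα to the ubiquitin ligase COP1, and it is known as a locus of plasma lipids. Its probes (NM_144549) read 2521 in fasting and 2334 upon feeding, a difference of -0.11 (SD 0.10), and 1171 and 1160.1, a difference of -0.01 (SD 0.10). The sign depended on the scaling, with 0.07 for the brighter probe when arrays were scaled by the median. Of its paralogs, Trib2 read 134 and 109, a difference of -0.30 (SD 0.17). Trib3, which binds AKT and is induced by fasting, read 3269 and 1633, just past 2-fold (SD 0.10), and -0.81 with median scaling.

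Foxo1, the main FoxO factor of glucose production in liver, was lower upon feeding on both of its probes (NM_019739). The brighter read 5967 in fasting and 2738 upon feeding, a difference of -1.12 (SD 0.09). The other read 3048 and 1362, a difference of -1.16 (SD 0.10). The probes differed from each other by less than the spread of spots. With each array scaled by its median the differences were -0.92 and -0.98, just short of 2-fold. That scaling moved the median of all genes from 0.03 to 0.14.

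Foxo3 was near the floor of the array. Its 1 probe (NM_019740) read 16.6 in fasting and 10.8 upon feeding, a difference of -0.62 with an SD of 0.67, and -0.14 under the normexp correction. Its difference could not be told from 0 at this signal. Of the paralogs, Foxo4 was on neither array well above background. Foxo6 was dim as well, with signals of 13.7 in fasting and 23.5 upon feeding, at least 1.62-fold higher upon feeding (a bound of 0.70, SD 0.60), and its bound was 0.13 under normexp.

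**Figure D2:**
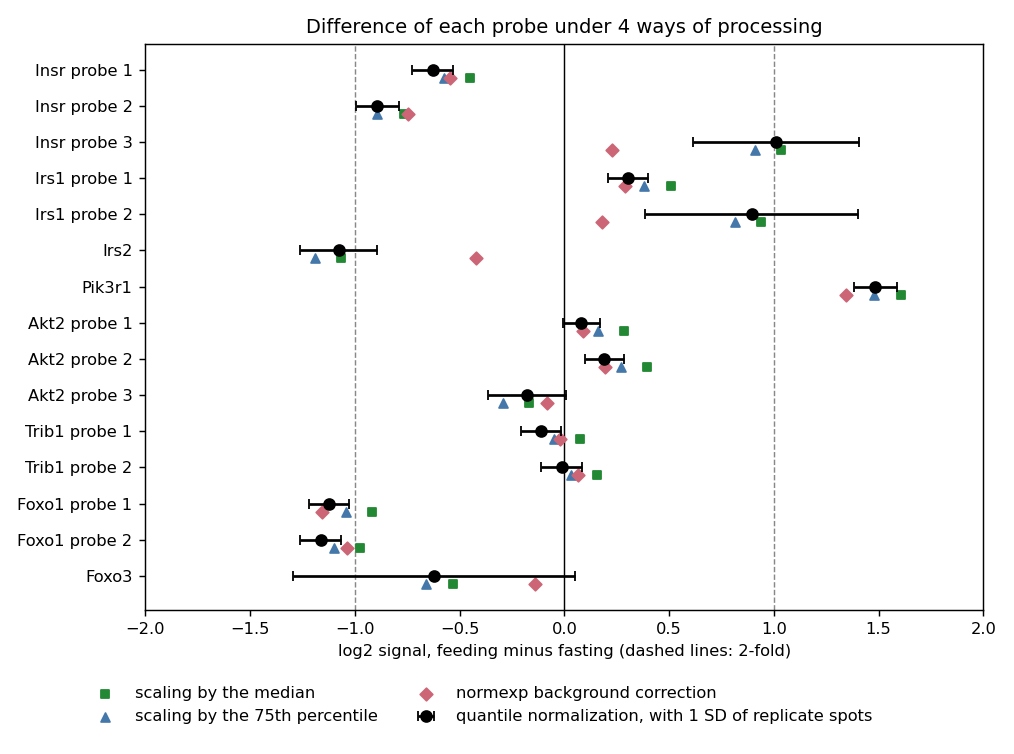
Difference (log2, feeding minus fasting) of the 15 probes that were well above background, with 1 SD of replicate spots (black) and the values under 3 other ways of processing (coloured). Pik3r1 lies beyond 2-fold in all 4. Foxo1 crosses the 2-fold line with scaling by the median (-0.92) and Irs2 with normexp (-0.42). The dimmest Insr probe, opposite in sign to the other Insr probes, lies just past 2-fold (1.01). It falls short of 2-fold with scaling by the 75th percentile (0.91) and with normexp (0.23).

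Of the 8 genes measured, 1 was at least 2-fold higher upon feeding, where 3.29% of all 16346 genes measured were, and 2 were at least 2-fold lower, where 4.62% of all genes were. At 1.5-fold the numbers were 1 higher, against 10.5% of all genes, and 4 lower, against 10.6%; the lower ones were Foxo1, Irs2, Insr and Foxo3, the last within its spread. The median of the 8 genes was -0.37, that of all genes 0.03. Among all genes, 3.85% were lower by more than Foxo1, 4.06% by more than Irs2 and 9.61% by more than Insr, and 1.16% were higher by more than Pik3r1. In order, the differences ran from Pik3r1 (1.48) over Irs1 (0.30), Akt2 (0.08), Trib1 (-0.11), Foxo3 (-0.62), Insr (-0.63) and Irs2 (-1.08) to Foxo1 (-1.12). Pik3r1 stood 1.18 above Irs1, against a combined SD of spots of 0.14, and Insr, on its brightest probe, stood 0.45 above Irs2 (combined SD 0.21). The order of Insr and Irs2 turned under normexp, with -0.55 for Insr and -0.42 for Irs2, and the second Insr probe, at -0.89, lay closer to Irs2 than that combined SD. Irs2 and Foxo1 lay 0.05 apart, well within their combined SD of 0.21, and Foxo3 could not be placed against Trib1 or Insr.

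**Figure D3:**
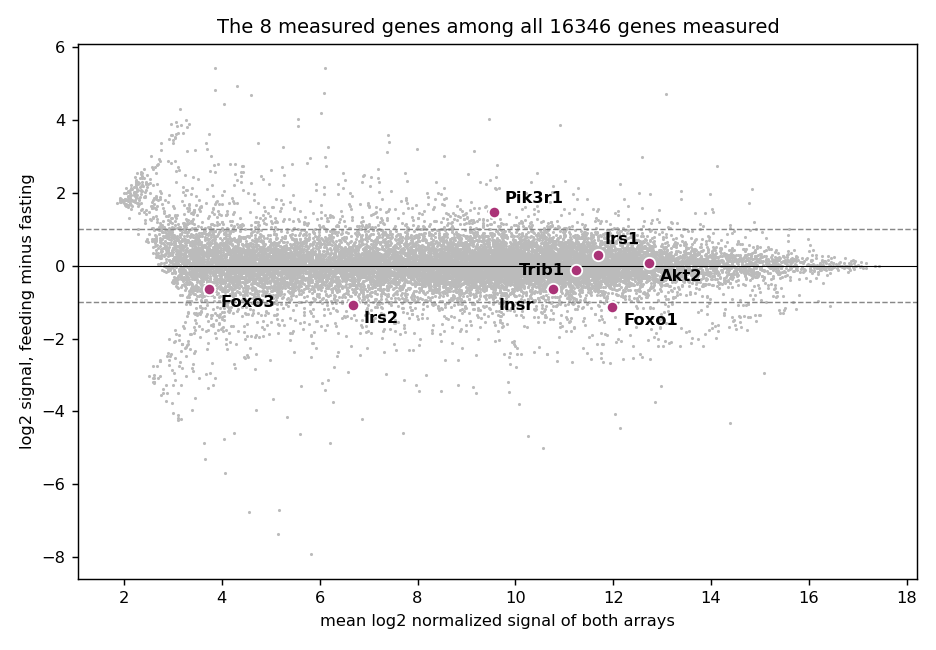
Measured difference (log2, feeding minus fasting, no bound applied) against mean log2 normalized signal for all 16346 genes (grey), with the 8 measured genes in purple; dashed lines mark 2-fold. Pik3r1 at 1.48 lies above and Foxo1 and Irs2 lie below the dashed lines, and Foxo3 sits at the dim end.

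The other genes of the pathway were read from lists written from general knowledge. Against these lists, 3.29% of all genes measured were at least 2-fold higher upon feeding and 4.62% lower. Of 26 further components (receptors, PI3K and AKT forms, PDK1, GSK3 and adaptors), 24 were measured, 1 was at least 2-fold higher and 0 lower, with a median of -0.02. The higher one was Pik3r3, which encodes p55γ, another regulatory subunit of PI3K, with signals of 79.7 in fasting and 172 upon feeding, a difference of 1.11 (SD 0.17) that fell to 0.44 under the normexp correction. Igf1r, the paralog of the insulin receptor, differed by -0.23 (SD 0.15). Pik3ca, the catalytic subunit p110α, read 338 and 174, a difference of -0.96 (SD 0.15). Pdpk1, the kinase that activates AKT, read 7874 and 4413 on its brightest probe, a difference of -0.84 (SD 0.09). Its 3 probes ran from -0.89 to -0.37, and the brightest gave -0.64 with scaling by the median. Pik3ca and Pdpk1, and the Socs genes and Cblb among the inhibitors, are named after their values were seen.

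Of 22 inhibitors of insulin signaling 21 were measured, of which 16 were lower and 5 higher, with a median of -0.30. Among all 16346 genes measured, 7774 were lower and 8559 higher, with a median of 0.03. Of the inhibitors, Trib3 alone reached 2-fold. It fell short in 4 of the other settings, those with another scaling, with normexp or with outlier spots kept. With scaling by the median the median of this list was -0.18. Short of 2-fold on their brightest probes were the suppressors of cytokine signaling Socs2 (-0.99, SD 0.10), Socs1 (-0.95, SD 0.27) and Socs3 (-0.94, SD 0.10) and the ubiquitin ligase gene Cblb (-0.95, SD 0.10). Socs1 was dim (88.9 in fasting and 45.9 upon feeding), with -0.29 under normexp and -1.07 with scaling by the 75th percentile. The other Cblb probe was at -1.51, while the probes of Socs2 ran from -0.99 to -0.62. With the mean of the probes, 2 inhibitors were at least 2-fold lower. All 15 genes of the mTORC1 branch, which couples insulin to protein synthesis, were measured, with a median of -0.41. Among these genes 1 passed 2-fold, Ddit4, the mTORC1 inhibitor also called REDD1, which read 27114 in fasting and 2046 upon feeding, a difference of -3.73 (SD 0.09).

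All 24 listed targets of FoxO factors were measured, with a median of -0.82. Of these, 10 were at least 2-fold lower upon feeding, where 4.62% of all genes were, and 1 higher, where 3.29% were. The 4 with the largest decrease under quantile normalization were Igfbp1 (-4.33), the coactivator gene Ppargc1a (1400 in fasting and 146 upon feeding, a difference of -3.26), Pck1 (-2.95) and the cell cycle gene Ccng2 (365 and 70.3, a difference of -2.37, SD 0.16). Ccng2 led the kinase gene Pdk4 (-2.36, SD 0.10) by less than the spread of spots, and this order depended on the background correction: under normexp Pck1 (-2.89) came before Ppargc1a (-2.45), and Ccng2 (-1.39) after Pdk4 (-2.25) and G6pc (-1.83). Pdk4 and G6pc are named after their values were seen. Gadd45a, a gene of growth arrest, went the other way, from 302 to 2059.5 (a difference of 2.77, SD 0.10). Several of these genes are also targets of glucagon and glucocorticoid signals, so the list is not a readout of FoxO alone. Of the 8 genes around Trib1 and COP1, 2 were at least 2-fold lower, Cebpd (-2.14) and Cebpb (-1.37), while Cebpa, whose protein TRIB1 targets, differed by 0.29 and Cop1 by -0.02. Of the 12 lipogenic genes that insulin induces, 7 were at least 2-fold higher, against 3.29% of all genes, and 1 lower, against 4.62%. Ahead were Srebf1 (3.15), Fasn (3.02), Pnpla3 (2.99) and Thrsp (2.05). The lower one was Gpam (-1.01, but -0.97 with scaling by the median and -0.58 with normexp). The median of this list was 1.41.

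**Figure D4:**
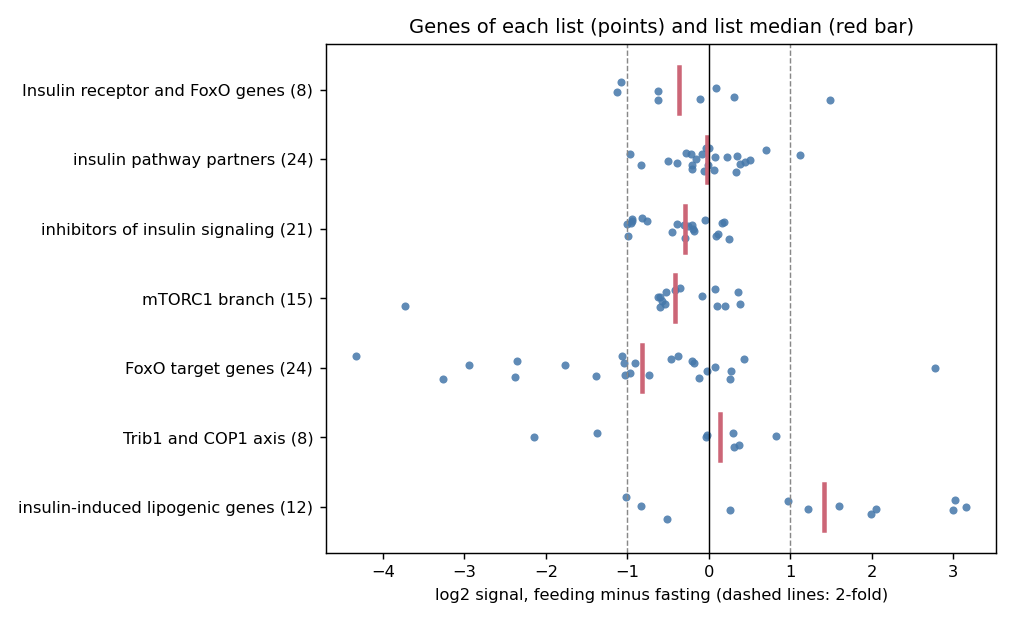
Difference (log2, feeding minus fasting) of each measured gene (points) in the set of 8 and in 6 further lists, with the number measured in brackets and the median as a red bar. The FoxO targets lie mostly below 0 (median -0.82) and the lipogenic genes mostly above it (median 1.41), while the pathway partners centre near 0 (median -0.02).

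The tissue matched its label by signal, since the 5 hepatocyte markers summed to 471049 in fasting and 448822 upon feeding. Being measured alone does not mark a tissue, since all 4 pancreas markers were measured too, with sums of 232 and 193. Of the 4 adipose and muscle markers 1 was measured, at 15.6 and 10.7. The 2 measured red blood cell markers summed to 23672 and 22646. In whole liver, fewer cells of a type and less RNA per cell cannot be told apart. Markers of other cells were lower upon feeding in part. The 4 measured leukocyte markers summed to 14222 and 7970 (median difference -0.43), with Adgre1 of macrophages at -0.89, the 4 endothelial markers to 12872 and 10163 (median -0.43), and the 4 stellate cell markers to 13619 and 8578 (median -0.73 from the measured signals, and -0.42 with the dim marker Des, above background on 1 array, taken at its bound of 0). Cholangiocyte markers were dim apart from Sox9, which was higher by 2.11. Insr, Foxo1 and Pik3r1 are expressed in many of these cells, and the part of such cells in the differences was not tested.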

How the data were processed

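Total liver RNA of a fasting pool and a feeding pool was labelled with Cy3 and hybridised to the Agilent Whole Mouse Genome array (design on mm9). The authors deposited Feature Extraction 11.0.1.1 output, in which the processed signal is an intensity after background subtraction, not normalized between arrays. A second deposited table equals the mean local background of each spot and was not used. Here control and outlier spots were dropped and log2 intensities averaged per probe. Quantile normalization and the threshold of 2-fold follow the methods of the study. List medians use measured signals, without the bound given next. Probes were named through RefSeq transcripts (GRCm38.p6), with 27218 of 39402 matched. A gene was read from its brightest probe and counted where the scanner flagged it as well above background in fasting, feeding or both; where only 1 of the arrays had the flag, the fold was taken against the higher of its own signal and the lowest signal well above background.

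No p-value can be given with 1 array per group, and the number of arrays limits the precision. The alternatives were scaling by the median or the 75th percentile, normexp (offset 50, limma 3.58.1, on the median signal), the mean of a gene's probes, outlier spots kept, other filters and thresholds of 1.5-fold and 3-fold. Named were the 9 genes, their paralogs, and in each list at most 4 genes with the largest difference past 2-fold in each direction; others are marked as named later. Genes, lists and tests were chosen with earlier results of these data known. Of the motifs, the FoxO consensus was chosen first and the others after. The counting was tested on simulated data, with changes well past 2-fold put only into probes well above background on both arrays. That test does not cover dim probes, genes taken at a bound or differences close to 2-fold.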

Additional observations from a re-analysis of the deposited data

How the results depend on the processing

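Of 37 recomputed differences of the 8 measured genes, 27 moved by less than 1 SD of replicate spots. This count flatters the agreement. Each probe of these genes was 1 spot, so keeping outlier spots could act only through the normalization, and those values are all among the 27. Foxo3 is also among them with -0.14 under normexp against -0.62, because its SD was 0.67. In every setting tried 7 of the 8 genes kept their sign, Trib1 being the exception. Scaling by the median gave -0.45 for Insr, 0.51 for Irs1, 0.28 for Akt2, 1.61 for Pik3r1, -0.92 for Foxo1 and 0.074 for Trib1, on a scale where the median of all genes was 0.14. The normexp correction gave -0.42 for Irs2 and 1.34 for Pik3r1; its offset of 50 is added to every signal and shrinks differences of dim probes by construction. The mean of the probes gave -0.17 for Insr and 0.60 for Irs1. Among the 8 genes, 1 was at least 2-fold lower with scaling by the median (Irs2) and 1 with normexp (Foxo1). At 1.5-fold 4 were lower, and at 3-fold 0 were higher and 0 lower. Over all genes measured, 537 were higher and 756 lower past 2-fold. These counts were 215 and 312 with normexp, 1177 and 1189 without a filter on dim probes, 1714 and 1737 at 1.5-fold, and 158 and 311 at 3-fold; without the lower bound 876 were higher, and with scaling by the median 717 were higher and 649 lower. The 10 FoxO targets at least 2-fold lower became 7 with scaling by the median or normexp. No paired analysis was possible because each group has 1 array, and no replicate could be left out. Dim probes limit what can be said of Foxo3 and Grb10.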

Other observations

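The E-box and the insulin response sequence lay within 10 bases of each other in 4 promoter windows besides those of the Irs genes. Of their genes, Klf11, a zinc finger transcription factor, was lower upon feeding (-1.16), Pcbp1, an RNA binding protein gene, was higher (0.80), and Pyroxd1 differed by 0.25. These were named after their values were seen. Whether the pair has a part in any of these differences was not tested.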
